A study of Caenorhabditis elegans with 8 samples.

Results

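DAF-16, the only FOXO transcription factor of the nematode Caenorhabditis elegans, was mapped by chromatin immunoprecipitation and sequencing (ChIP-seq), and the peaks described here are those deep inside the gene they were assigned to. A peak was taken as deep when its centre lay between the start and the end of the assigned gene model and 1000 bp or more downstream of that model's transcription start site (TSS). The daf-2(-) list held 369 such peaks among 6859 (5.38%, Wilson 95% interval 4.87% to 5.94%), in 337 host genes. The WT list held 310 among 5396 (5.74%, 5.16% to 6.40%), in 290 host genes. Together these were 679 of 12255 peaks. No measured peak strength entered the choice.

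The study asked where the endogenous protein sits when insulin signalling is normal and when it is low. Its strains were daf-2(-), which carries the e1370 allele of the insulin/IGF-1 receptor gene, and the wild type WT (N2), with the DAF-16-null strains daf-16(-);daf-2(-) (mgDf50; e1370) and daf-16(-) (mgDf50) as controls. All were whole worms of mixed stages grown at 20 °C with no other treatment, with 1 ChIP library and 1 input library for each of the 4 strains, 8 libraries in all. Samples of a strain were combined before sequencing, all tissues and ages are pooled in each list, and there is no spread between replicates to set a difference between strains against, so no p-value is given. Intervals below are 95% intervals and cover counting error only.

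When the DAF-2 receptor is active, a kinase relay that includes PDK-1 and the AKT kinases phosphorylates DAF-16 and holds it in the cytoplasm. When the receptor is weak, DAF-16 collects in the nucleus, where it binds DNA near genes of stress defence, metabolism and dauer formation. Transcription factors bind not only upstream of genes but also within them, often in the long first introns of C. elegans genes, where enhancers and alternative start sites are found. Exon and intron borders were not used here, so the peaks are described by their distance along the gene model.

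Deep peaks were a minority of the peaks inside genes. Of 1396 daf-2(-) peaks with their centre inside the assigned model, 369 were deep and 1027 lay under 1 kb from the TSS. Of 1217 such WT peaks, 310 were deep and 907 lay under 1 kb. A further 446 daf-2(-) and 325 WT peaks lay 1000 bp or more downstream of the TSS but past the end of the gene model, and these are not counted as deep. Since each peak was given to its closest TSS, the rule also places a deep peak far from other start sites. This follows from the assignment, so the count of such cases is no separate test. For 0 of the 369 daf-2(-) and 0 of the 310 WT peaks was another TSS named in either list under 1 kb away. Start sites that neither list names could not be checked.

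The peaks kept to the near side of the limit. The median distance from the TSS was 1708 bp (1614 to 1818) in daf-2(-) and 1673 bp (1576 to 1843) in WT. In daf-2(-), 147 of 369 deep peaks (39.8%) lay under 1500 bp and 11 (2.98%) lay 5000 bp or more away. In WT, 127 of 310 (41.0%) lay under 1500 bp and 5 (1.61%) lay 5000 bp or more away. As a share of the length of the gene model, the median position was 32.6% (29.3% to 35.2%) in daf-2(-) and 33.9% (29.6% to 38.3%) in WT. The first 50% of the model held 272 of 369 deep daf-2(-) peaks (73.7%, 69.0% to 77.9%) and 214 of 310 deep WT peaks (69.0%, 63.7% to 73.9%). The rule itself removes the first 1000 bp, and peaks closer to the TSS of another gene are assigned to that gene, so these shares are not read against an even spread along the model. Within 500 bp of the gene's end lay 30 daf-2(-) and 31 WT peaks. The intervals of the strains overlapped in distance and in relative position.

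**Figure D1:**
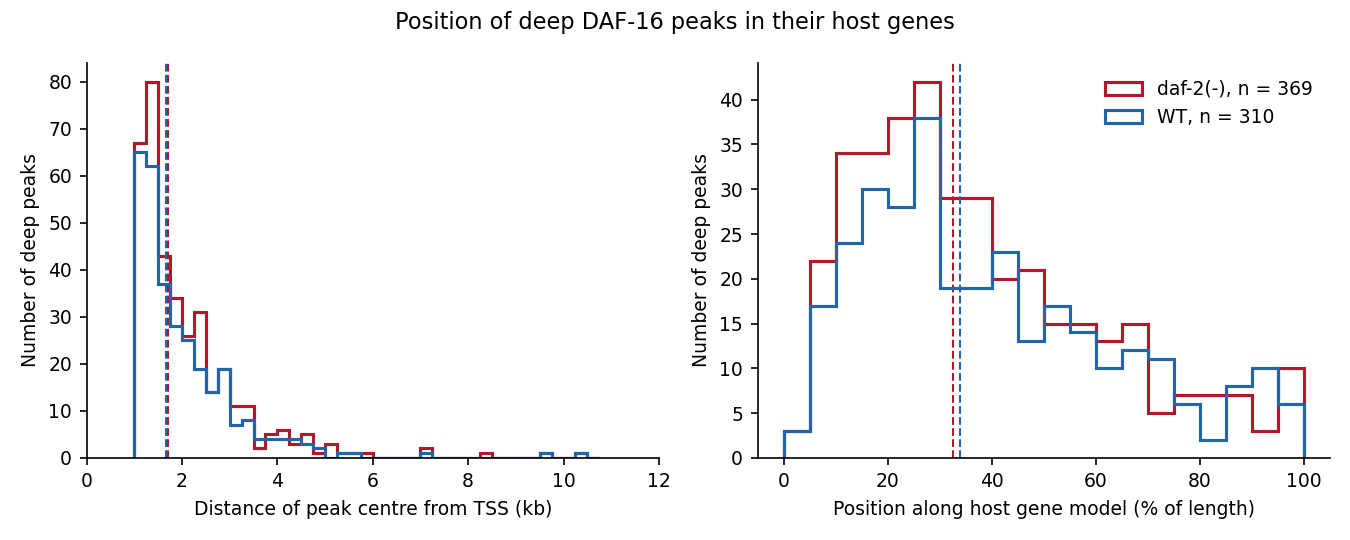
Number of deep peaks by distance of the peak centre from the TSS in kb (left, bins of 0.25 kb) and by position along the host gene model in percent of its length (right, bins of 5%), for daf-2(-) (red, n = 369) and WT (blue, n = 310). Dashed lines mark the medians, 1708 bp and 32.6% in daf-2(-) and 1673 bp and 33.9% in WT; both outlines crowd just past 1 kb and thin out toward the gene's end.

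The host genes were long. Counting each gene once, by the model of its strongest deep peak, the median model length was 5968 bp (5173 to 6666) for 337 daf-2(-) hosts and 5402 bp (4658 to 6320) for 290 WT hosts. Other genes with a peak and a model over 1000 bp had a median of 2795 bp (2717 to 2911, n = 2957) in daf-2(-) and 2766 bp (2691 to 2872, n = 2443) in WT, and neither interval meets that of the hosts. The longest host model was that of unc-89, the giant muscle protein obscurin, with 48764 bp in both lists. The share of genes with a peak that had a deep one was larger the longer the model: in daf-2(-) 3.94% (3.10% to 5.00%) of 1625 genes over 1 and up to 3 kb, 18.9% (16.1% to 22.2%) of 639 genes over 5 and up to 10 kb, and 40.8% (28.2% to 54.8%) of 49 genes over 20 kb. In WT the shares were 4.68% (3.69% to 5.93%) of 1388, 19.8% (16.5% to 23.5%) of 501 and 42.1% (27.8% to 57.8%) of 38 genes. A longer model has more room past its first 1000 bp, which the rule requires.

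By the RefSeq gene table, 350 of 361 matched deep daf-2(-) peaks (97.0%) and 296 of 304 matched deep WT peaks (97.4%) were in protein-coding genes. Among the other matched peaks assigned to models over 1000 bp the shares were 97.8% of 3768 in daf-2(-) and 97.9% of 2935 in WT. Long non-coding RNAs hosted 8 deep daf-2(-) and 6 deep WT peaks, and pseudogenes hosted 3 in daf-2(-) and 2 in WT.

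Deep peaks were weaker than the rest of their list. Fold enrichment is the summit of the ChIP tags over the local background that the peak caller took from the input. Its median was 6.31 (5.76 to 6.72) at deep daf-2(-) peaks, against 7.27 (7.16 to 7.41) at the other 6490 peaks, a ratio of 0.868. In WT it was 9.45 (8.77 to 9.97) at deep peaks, against 10.6 (10.5 to 10.8) at the other 5086 peaks, a ratio of 0.890. The same order was seen in summit height, with medians of 49 tags (46 to 51) at deep and 57 (56 to 58) at other daf-2(-) peaks, and 80.5 (75 to 88) at deep and 91 (90 to 93) at other WT peaks. A fold enrichment of 10 or more was reached by 71 of 369 deep daf-2(-) peaks (19.2%, 15.5% to 23.6%), where the whole list had 30.1%, and by 135 of 310 deep WT peaks (43.5%, 38.1% to 49.1%), where the whole list had 54.6%. Deep minus other peaks, the share differed by -11.4 percentage points in daf-2(-) (Newcombe interval -15.3 to -6.98) and by -11.7 points in WT (-17.3 to -6.01). All deep peaks had a deposited FDR of at most 0.15% in daf-2(-) and 2.44% in WT. Peak width had a median of 809 bp (789 to 830) at deep and 836 bp (831 to 842) at other daf-2(-) peaks, and 972 bp (951 to 1002) at deep and 960 bp (952 to 967) at other WT peaks.

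Among the position classes, the deep class had the lowest median in both lists. In daf-2(-) the medians were 6.31 at deep peaks, 6.82 (6.56 to 7.13) at 851 peaks beyond the gene's end, 7.09 (6.77 to 7.41) at 1027 peaks inside the gene and under 1 kb, 7.13 (6.86 to 7.30) at 1439 peaks 1 kb or more upstream, and 7.63 (7.41 to 7.82) at 3173 peaks under 1 kb upstream. In WT they were 9.45 at deep peaks, 9.87 (9.49 to 10.3) at 658, 10.2 (9.87 to 10.7) at 907, 10.5 (10.1 to 10.8) at 1047 and 11.0 (10.8 to 11.2) at 2474 peaks of the same classes. The interval of the deep peaks meets that of peaks beyond the gene's end in both lists and that of peaks inside under 1 kb in WT, and lies below those of both upstream classes. Strength did not order with depth in the gene: the bins from 1000 to 1500, 1500 to 2000, 2000 to 3000 and 3000 to 5000 bp had medians of 6.58, 6.04, 5.76 and 6.94 in daf-2(-) and of 9.53, 8.56, 9.71 and 9.57 in WT, with overlapping intervals. At 5000 bp or more the median was 5.62 (4.44 to 16.6) over 11 daf-2(-) peaks and 12.8 over 5 WT peaks, too few for an interval.

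**Figure D2:**
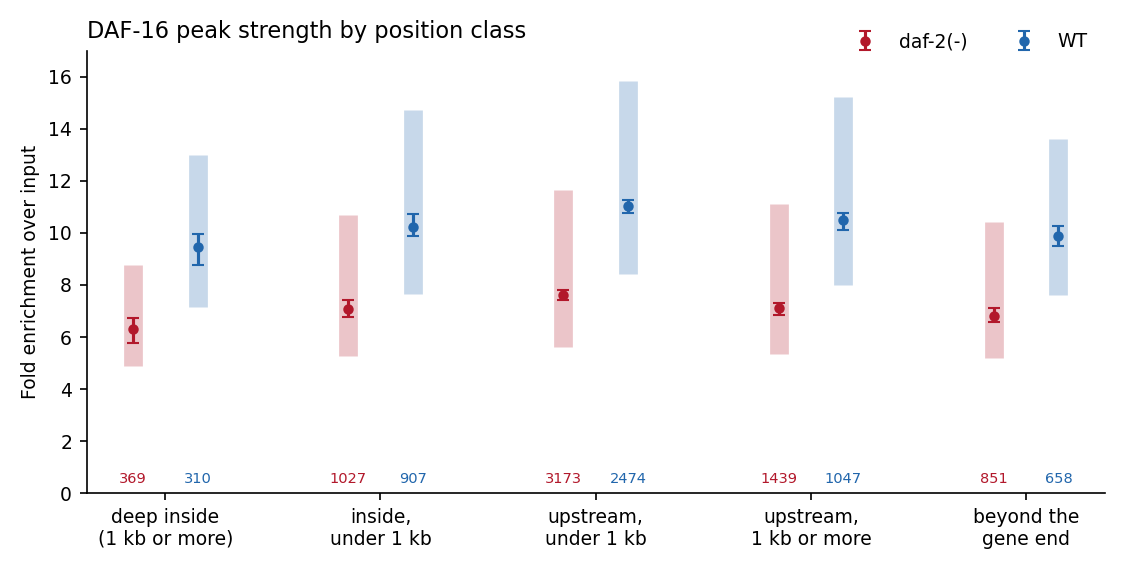
Fold enrichment over input by position class for daf-2(-) (red, left of each pair) and WT (blue). Points are medians with exact order-statistic 95% intervals, pale bars run from the lower to the upper quartile, and the numbers of peaks stand at the foot; deep peaks have the lowest medians, 6.31 in daf-2(-) and 9.45 in WT.

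A few deep peaks stood among the strongest of all. The tallest in daf-2(-) was in linc-90, a long intergenic non-coding RNA gene, at chrIII:354305-355511 (WS230), 2686 bp from the TSS of a 3181 bp model. It had a fold enrichment of 41.1 in daf-2(-), the 4th highest of that list, against 29.5 in WT. It held 749 tags (696 to 805) in daf-2(-) against 986 (925 to 1050) in WT. Over all peaks the median tag count was 106 in daf-2(-) and 184 in WT. C34D10.2, a protein-coding gene on chromosome X, had the strongest deep peak of WT and the third strongest of daf-2(-), with a fold enrichment of 38.8 in daf-2(-) (chrX:8019545-8020744, 2125 bp from the TSS of a 7536 bp model) against 39.6 in WT. The 2 peaks of C34D10.2 lay side by side: one across its TSS, with a fold enrichment of 35.1 in daf-2(-) against 34.4 in WT, and the deep one. Thus both peaks of this gene were strong, and their fold enrichments, each taken from its own list, were near equal.

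Transcription factor genes were among the strongest hosts. hlh-30, the C. elegans counterpart of TFEB, which turns on autophagy and lysosome genes, had a deep peak at chrIV:4023995-4025329, 2401 bp into an 11449 bp model. Its fold enrichment was 31.6 in daf-2(-) against 24.8 in WT, while its summit height was 230 tags in daf-2(-) against 259 in WT. The peak of hlh-30 under 1 kb from the same TSS was weaker, 10.6 in daf-2(-) against 9.72 in WT. tra-1, the GLI-family factor at the end of the sex determination pathway, had its strongest peak 9518 bp into a 13159 bp model at chrIII:11185041-11186336, with a fold enrichment of 27.6 in daf-2(-) against 23.1 in WT. Its other deep peak, 4603 bp in, had 5.08 in daf-2(-) against 9.34 in WT. For the peak far down tra-1 the ratio of daf-2(-) over WT was 1.19, with a counting interval that holds 1 (0.989 to 1.44). The nearer peak was higher in WT, with a ratio of 0.544 (0.366 to 0.808). Over all shared pairs the median ratio was 0.764, which lies within the interval of the nearer peak and below that of the far one. Both tra-1 peaks were lower in daf-2(-) by summit height (201 tags in daf-2(-) against 237 in WT, and 37 in daf-2(-) against 73 in WT). The median height over all peaks was 56 tags in daf-2(-) and 90 in WT.

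nhr-34, a nuclear hormone receptor gene, had a deep peak with a fold enrichment of 24.6 in daf-2(-) against 26.8 in WT. skn-1, the Nrf-family regulator of oxidative stress defence, had a deep peak 1378 bp into a 9439 bp model at chrIV:5658264-5660025. Its fold enrichment was 11.6 in daf-2(-) against 17.1 in WT. Its tag counts were 268 (237 to 302) in daf-2(-) against 479 (437 to 524) in WT, where the median over all peaks was 106 in daf-2(-) and 184 in WT. The deep peak was the only peak of skn-1 in WT, and daf-2(-) had one more, at the start of another model of the gene, with 5.67. srh-2, of a family of putative chemosensory receptors, carried deep peaks of 31.1 and 14.0 in daf-2(-) against 36.2 and 19.3 in WT. Also among the 10 strongest of a list were the deep peaks of F30B5.4 (26.0 in daf-2(-) against 24.5 in WT), K07A9.4 (23.7 in daf-2(-) against 22.8 in WT), Y62E10A.13 (22.4 in daf-2(-) against 28.7 in WT), F52H2.7 (17.6 in daf-2(-) against 27.3 in WT) and the non-coding linc-143 (20.2 in daf-2(-) against 24.6 in WT). Each of these was deep in both lists, while those of sor-1, nhr-3 and R107.5, the last of the strongest, were not.

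**Figure D3:**
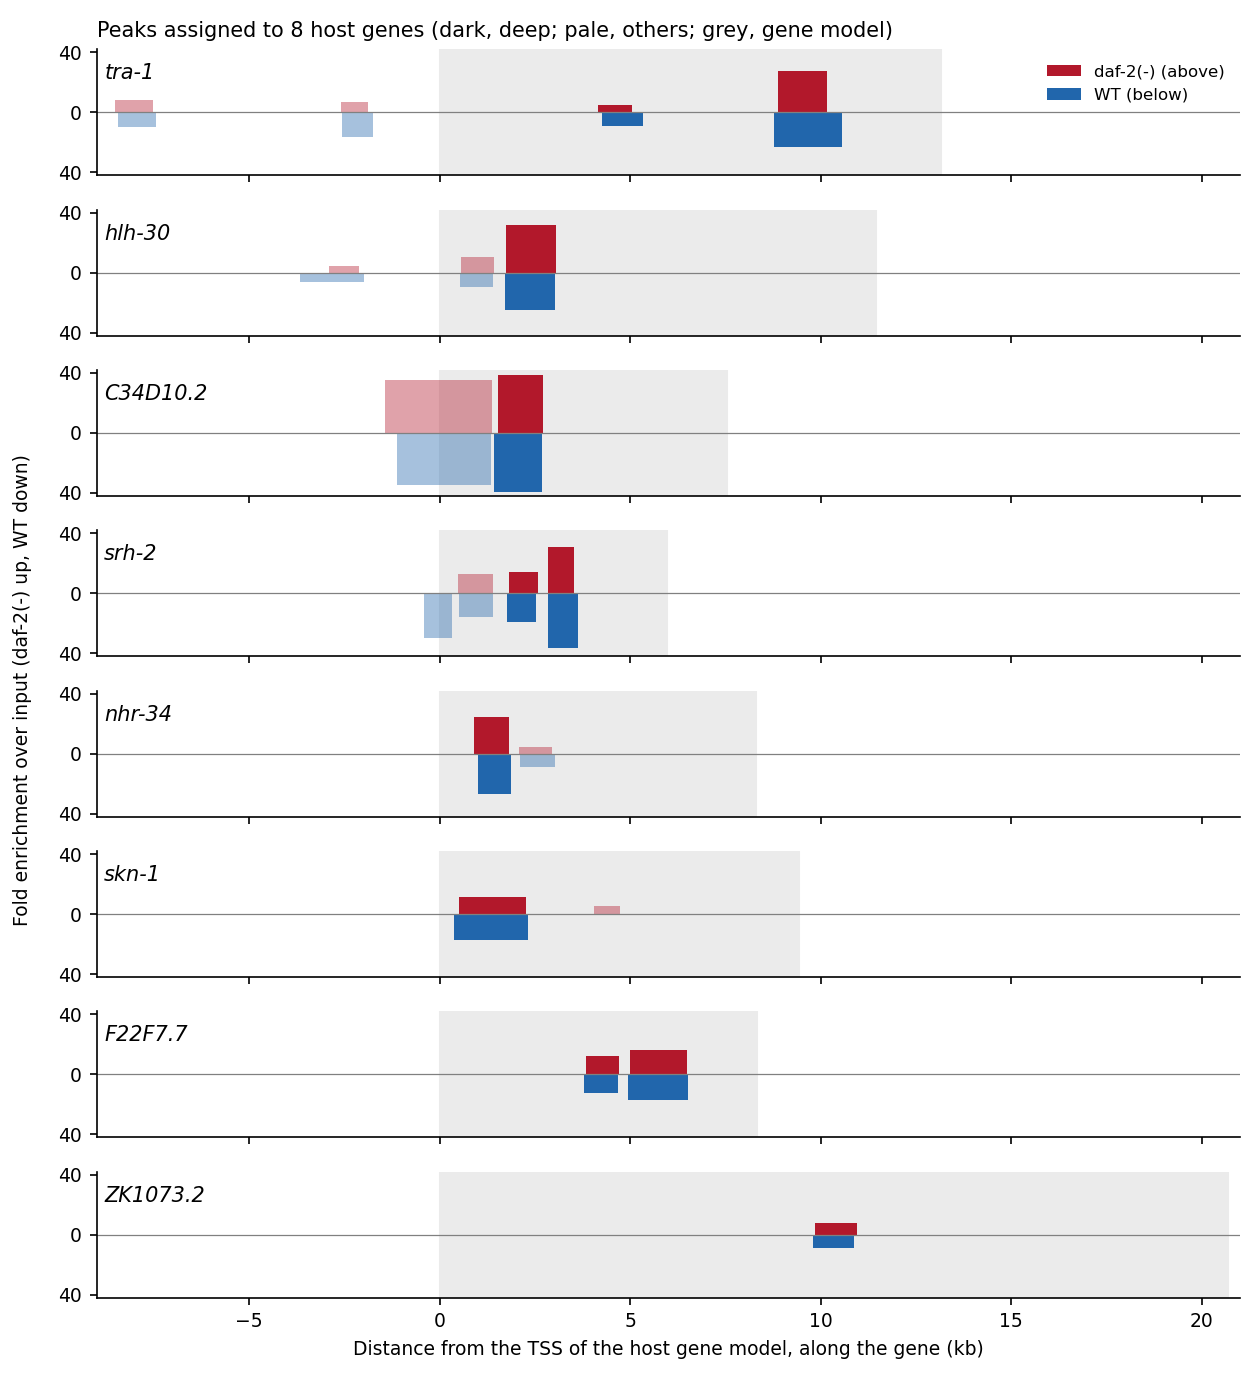
Peaks assigned to 8 host genes, drawn to scale by distance from the TSS of the host model (kb, along the gene), with fold enrichment over input upward for daf-2(-) (red) and downward for WT (blue). Grey marks the gene model, dark bars the deep peaks and pale bars the gene's other peaks; pale bars within grey were nearest to the same TSS under 1 kb or to the TSS of another model of the gene. The deep peaks stand at the same places in both strains, from 1368 bp in nhr-34 to 10391 bp in ZK1073.2 in daf-2(-).

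The peaks farthest from a TSS varied in strength. ZK1073.2 had the largest distance in both lists, 10391 bp in daf-2(-) and 10345 bp in WT, near the middle of a 20701 bp model, with a fold enrichment of 7.72 in daf-2(-) against 8.77 in WT. After tra-1 came C35B1.2, with a peak at 7092 bp of 7.82 in daf-2(-) against 12.8 in WT, and one at 8336 bp, of 5.08, found in daf-2(-) only. B0412.3 (7033 bp, 4.44) completed the 5 most distant of daf-2(-) and had no WT partner. In WT they were completed by F22F7.7 (5735 bp, 17.3) and Y38E10A.20 (5262 bp, 7.16), both with a daf-2(-) partner. Among these most distant peaks only those of tra-1 and F22F7.7 passed a fold enrichment of 15.

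Most hosts had a single deep peak, 306 of 337 in daf-2(-) and 271 of 290 in WT. A gene with 2 or more was seen 31 times in daf-2(-) and 19 times in WT, and 12 of these genes were the same. H18N23.2, on chromosome X, had the most, 3 in each list. Its deep peaks had fold enrichments of 16.3, 11.4 and 9.81 in daf-2(-), against 17.9, 12.5 and 14.1 in WT, and they belonged to models of 17617 and 4849 bp. crh-1, the CREB factor, had deep peaks of 7.82 and 5.90 in daf-2(-) against 13.9 and 12.9 in WT. tir-1, the SARM-family adaptor of innate immune signalling, had 10.5 and 5.59 in daf-2(-) against 10.8 and 7.54 in WT. unc-73, the Trio-family exchange factor of axon guidance, had 5.76 and 3.70 in daf-2(-) against 10.6 and 7.16 in WT. In F22F7.7 the deep peaks had near equal fold enrichments, 16.6 and 12.2 in daf-2(-) against 17.3 and 12.1 in WT.

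Many host genes had no second peak assigned to them within 1000 bp of a TSS. Peaks near a host's TSS that were assigned to another gene are not counted here. A second peak within 1000 bp of a TSS of the same gene was found for 146 of 337 daf-2(-) hosts (43.3%, 38.1% to 48.7%) and 103 of 290 WT hosts (35.5%, 30.2% to 41.2%). The deep peak was the only peak assigned to the gene for 152 daf-2(-) and 156 WT hosts. Where both were present, the deep peak was the stronger in 62 of 146 daf-2(-) hosts (42.5%, 34.7% to 50.6%) and in 36 of 103 WT hosts (35.0%, 26.4% to 44.5%). In these genes the median fold enrichment was 6.91 (6.16 to 7.68) at the deep and 8.48 (7.53 to 10.01) at the TSS peak in daf-2(-), and 10.1 (9.02 to 10.9) at the deep and 12.9 (11.3 to 14.7) at the TSS peak in WT. gpa-12, a G12-type G protein subunit, was one whose deep peak was the stronger in both strains: 19.2 deep and 6.75 near the TSS in daf-2(-), 16.6 deep and 10.1 near the TSS in WT. Within the models of 52 daf-2(-) hosts lay also 78 peaks that were closest to the TSS of another gene, and within those of 31 WT hosts lay 42 such peaks.

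Deep peaks were found again in the other strain less often than other peaks. A peak was called shared when it overlapped a peak of the other list by 1 bp or more. In daf-2(-), 233 of 369 deep peaks were shared (63.1%, 58.1% to 67.9%), against 70.6% of the whole list. In WT, 241 of 310 were shared (77.7%, 72.8% to 82.0%), against 87.4% of the whole list. Deep minus all other peaks, the share differed by -7.90 percentage points in daf-2(-) (-13.1 to -3.01) and by -10.3 points in WT (-15.3 to -5.89). Against peaks inside the gene but under 1 kb from the TSS, the difference was -9.59 points in daf-2(-) (-15.3 to -4.07) and -5.94 points in WT (-11.4 to -0.965). Against peaks 1 kb or more upstream it was -4.20 points in daf-2(-), with an interval that holds 0 (-9.76 to 1.17), and -11.6 points in WT (-16.8 to -6.83).

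Sharing moved with strength. In the weakest quartile of the daf-2(-) list, 52 of 128 deep peaks (40.6%) and 738 of 1597 other peaks (46.2%) were shared. In its strongest quartile the counts were 53 of 59 (89.8%) and 1521 of 1653 (92.0%). Within each quartile of the daf-2(-) list the difference between deep and other peaks had an interval that held 0. In WT the weakest quartile had 62 of 112 deep peaks shared (55.4%) and 839 of 1242 others (67.6%), a difference of -12.2 points (-21.8 to -2.93). The next quartile had 57 of 73 (78.1%) and 1103 of 1272 (86.7%), a difference of -8.63 points (-19.5 to -0.438). In the strongest WT quartile 56 of 56 deep peaks were shared, and 1280 of 1281 others. The weakest quartile held 34.7% of the deep daf-2(-) peaks and 36.1% of the deep WT peaks. At a fold enrichment of 10 or more, 63 of the 71 deep daf-2(-) peaks and 130 of the 135 deep WT peaks were shared.

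**Figure D4:**
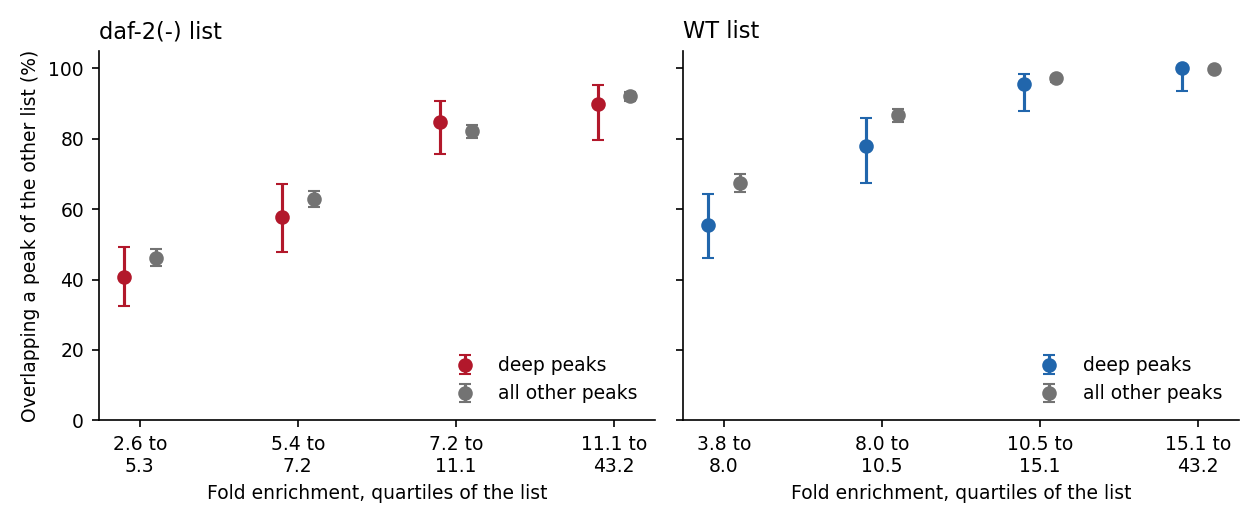
Share of peaks that overlap a peak of the other list (%), by quartile of fold enrichment within the daf-2(-) list (left) and the WT list (right), for deep peaks (coloured) and all other peaks (grey), with Wilson 95% intervals. Both kinds climb with strength, to 89.8% of deep peaks in the strongest daf-2(-) quartile and to 56 of 56 in the strongest WT quartile.

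Sharing also varied along the gene. Of the deep peaks beyond 80% of the model's length, 12 of 27 were shared in daf-2(-), against 221 of the 342 before it, a difference of -20.2 points (-37.7 to -1.21). In WT 13 of 26 were shared, against 228 of 284, a difference of -30.3 points (-48.7 to -11.7). The genes of these end-lying peaks were short, with a median model of 2150 bp in daf-2(-) and 1874 bp in WT. Their median distance from the TSS was 1900 bp (1406 to 2302) in daf-2(-) and 1730 bp (1270 to 2181) in WT. In WT, peaks in models of 5000 bp or more were shared more often than those in shorter ones, 147 of 173 against 94 of 137, a difference of 16.4 points (6.95 to 25.7). In daf-2(-) that difference was 3.33 points, with an interval that holds 0 (-6.62 to 13.4). These splits were drawn after the values were seen.

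The deep peaks without a partner were mostly weak. In daf-2(-) the 136 of them had a median fold enrichment of 5.08 (4.94 to 5.50), against 7.54 (7.00 to 7.90) for the 233 shared ones, and in WT the 69 had 6.84 (5.98 to 7.47), against 10.6 (9.84 to 11.6) for the 241 shared ones. One strong exception was in sor-1, a gene for repression of Hox genes in a Polycomb-like way. Its daf-2(-) peak at chrIII:8416804-8418311, 1330 bp into a 6424 bp model, had a fold enrichment of 40.2, the 7th highest of the list, and 1124 tags (1059 to 1192). No WT peak lay closer than 4091 bp to it. Whether a WT peak was called there and left out because of a daf-16(-) peak was not tested, since the peaks of the DAF-16-null strains were not analysed here.

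Next came lin-14, a heterochronic gene that times larval cell fates, with a daf-2(-) peak of 20.5 at chrX:11468736-11470900. It lay 1318 bp into a 15768 bp model, and the nearest WT peak began 188 bp away. Elsewhere lin-14 had a deep WT peak of 10.6, 1692 bp from the TSS of its model. The daf-2(-) partner of that WT peak, of 8.35, was assigned to T25C12.11. The non-coding linc-91 (16.3, nearest WT peak 112 bp away), F43H9.4 (11.5, 9998 bp away) and egl-4, a cGMP-dependent protein kinase gene (11.4, 5032 bp away), followed. The strongest deep peaks of WT without a partner reached less: 13.0 in F11C1.4, 12.5 in ZC449.4, 10.7 in nhr-61, 10.5 in tag-343 and 10.4 in mca-1, a plasma membrane calcium pump gene. Of these 10 peaks without a partner, those of linc-91, lin-14, F11C1.4 and tag-343 had a peak of the other list within 1000 bp.

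The lists had 207 host genes in common, 61.4% of the daf-2(-) hosts and 71.4% of the WT hosts. Of the 130 hosts of daf-2(-) alone, 47 had some peak in WT, and of the 83 hosts of WT alone, 38 had some peak in daf-2(-).

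For shared peaks the strains were compared at the same place. Each WT peak was paired with the overlapping daf-2(-) peak of the nearest summit, which gave 256 pairs with a deep peak in either list, 215 of them deep in both. Another 6 shared deep daf-2(-) peaks were not the nearest partner of any WT peak. The summits of these pairs were a median of 44.5 bp apart (38.0 to 54.0), and 210 of 256 lay within 100 bp of each other (82.0%, 76.9% to 86.2%). The other 4461 pairs had a median of 37.0 bp (35.0 to 38.0), and 86.7% of all pairs were within 100 bp. On the log2 scale, the daf-2(-) value minus the WT value of fold enrichment had a median of -0.41 (-0.47 to -0.36) at these pairs, beside -0.39 (-0.40 to -0.37) at the other 4461 pairs. So deep pairs had lower values in daf-2(-) by a margin whose interval overlapped that of the other pairs. The lists were made separately, each against its own input, and the depth of the libraries is not given in them. A shift of all pairs is therefore not read as a change of binding. The study used another measure, read counts normalized between samples with input subtracted. By that measure it reported higher average peak heights in daf-2(-) at coding genes bound in both strains.

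By size, 84 of 256 deep pairs were at least 1.5 times higher in WT (32.8%, 27.3% to 38.8%), where all pairs had 29.7%. Only 3 of 256 were at least 1.5 times higher in daf-2(-), where all pairs had 1.02%. These were C07A9.9, ccch-1 and dhs-13. In C07A9.9 a single daf-2(-) peak of 13.6 spanned WT peaks of 17.6 and 7.28, and the ratio of 1.87 (1.38 to 2.54) was against the weaker of these, with summits 1491 bp apart. The ccch-1 pair, with a ratio of 1.79, likewise had its summits 1032 bp apart, and its WT peak of 7.00 was assigned to F38B7.14. The same daf-2(-) peak, of 12.55, also overlapped a WT peak of 20.3 in ccch-1. The summits of that pair were 17 bp apart and its ratio was 0.618 (0.481 to 0.793). dhs-13, a short-chain dehydrogenase gene, was the one with summits at the same place, 23 bp apart: its deep peak, 4487 bp into a 6409 bp model, had a fold enrichment of 9.05 in daf-2(-) against 5.12 in WT, a ratio of 1.77 (1.201 to 2.60), and its summit height was 66 tags in daf-2(-) against 42 in WT.

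daf-5, a Ski/Sno-family gene of the dauer pathway, followed with 7.54 in daf-2(-) against 5.30 in WT. Its ratio of 1.42 had a counting interval that holds 1 (0.977 to 2.07) and lies above the median ratio of all pairs, 0.764. linc-90 had a ratio of 1.39 (1.19 to 1.63). In all, 38 of 256 deep pairs (14.8%, 11.0% to 19.7%) had the higher fold enrichment in daf-2(-), where all pairs had 15.1%. By summit height 13 of these 38 were higher in daf-2(-), 24 were lower and 1 was equal. Thus the order of the strains at linc-90 and hlh-30 turned with the measure, and that at dhs-13 did not.

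At the other end, the smallest ratios were 0.320 at srw-78, 0.385 at T24C2.5, 0.418 at Y53F4B.39, 0.425 at F42A8.1 and 0.433 at R11.1. T24C2.5 had a fold enrichment of 4.19 in daf-2(-) against 10.9 in WT (ratio interval 0.257 to 0.577) and 110 tags in daf-2(-) against 259 in WT. Y53F4B.39 had 6.31 in daf-2(-) against 15.1 in WT, with summits 80 bp apart. By the counting error of the summits alone, 116 of 256 deep pairs were lower in daf-2(-) (45.3%, 39.3% to 51.4%), where all pairs had 43.2%. Another 8 were higher (3.12%, 1.59% to 6.04%), where all pairs had 2.97%, and 132 were not distinguishable from 1. These shares of the deep pairs were near those of all pairs, whose median ratio was 0.764.

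**Figure D5:**
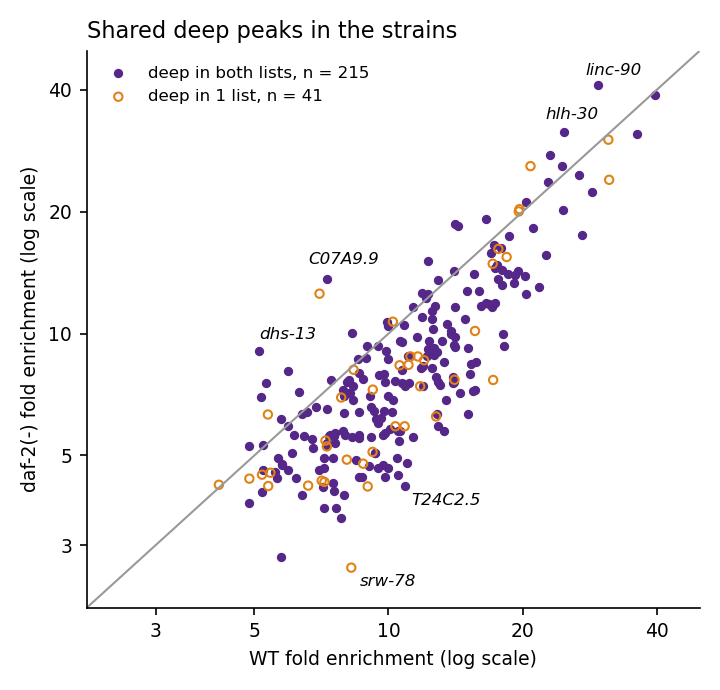
Fold enrichment in daf-2(-) (vertical, log scale) against WT (horizontal, log scale) for 256 shared pairs, 215 deep in both lists (filled) and 41 deep in only 1 list (open); the line marks equal values. Most points lie below the line, with a median log2 ratio of -0.41, and linc-90, hlh-30, C07A9.9 and dhs-13 are among the 38 above it.

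In 41 pairs only 1 of the peaks was deep, 26 times that of WT and 15 times that of daf-2(-). In 27 of them both peaks were assigned to the same gene, 14 with a partner that lay inside the gene but under 1 kb from the TSS. In the other 14 a shift of the peak centre gave the partner to another gene. nhr-3, a nuclear hormone receptor gene, had a deep WT peak of 31.3, and its daf-2(-) partner of 24.0, with the summit 84 bp away, was assigned to H01A20.4. R107.5 had a deep WT peak of 31.2, and its daf-2(-) partner of 30.1 was assigned to ikke-1 as an upstream peak. These 2 pairs were strong at one place in both strains and are named for different genes.

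The limit itself parts peaks of near equal distance from the TSS. Just inside it in daf-2(-) were peaks of F16A11.1 (1001 bp, fold enrichment 5.49) and of the fatty acid binding protein gene lbp-3 (1006 bp, 6.27), and just outside it peaks of T07C4.12 (998 bp, 17.4) and hlh-30 (998 bp, 10.6). In WT those just inside were in vhp-1 (1001 bp, 10.2) and unc-73 (1005 bp, 7.16), and those just outside in K08H2.7 (998 bp, 13.3) and B0563.5 (997 bp, 8.77).

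The X chromosome held 108 of 369 deep daf-2(-) peaks (29.3%, 24.9% to 34.1%), against 1654 of 6490 other peaks (25.5%), and 102 of 310 deep WT peaks (32.9%, 27.9% to 38.3%), against 1326 of 5086 others (26.1%). Deep minus other peaks, the difference was 3.78 points in daf-2(-), with an interval that holds 0 (-0.756 to 8.73), and 6.83 points in WT (1.69 to 12.4). Where the fold enrichment reached 10 it was -1.91 points in daf-2(-) (-10.6 to 9.35) and 3.56 points in WT (-3.68 to 11.9), so the order turned round in daf-2(-) and both intervals held 0. Against peaks inside the gene under 1 kb, both intervals held 0 (1.13 points, -4.11 to 6.65, in daf-2(-), and 4.13 points, -1.71 to 10.2, in WT). Chromosome III held 57 deep daf-2(-) peaks (15.4%, 12.1% to 19.5%), against 13.6% of the others, and 56 deep WT peaks (18.1%, 14.2% to 22.7%), against 13.4% of the others. Chromosome V held 48 deep daf-2(-) peaks (13.0%, 9.95% to 16.8%), against 16.7% of the others, and 38 deep WT peaks (12.3%, 9.06% to 16.4%), against 865 of 5086 others.

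The hosts were next sorted by gene groups. Of all genes with a peak, 5.99% (5.40% to 6.65%) were hosts in daf-2(-) and 6.25% (5.59% to 6.98%) in WT; of those with a model over 1000 bp, 10.2% were hosts in daf-2(-) and 10.6% in WT. The groups differ in gene length, which moves with the share of hosts as given above, so the counts are descriptions. In all, 73 of 337 daf-2(-) hosts and 68 of 290 WT hosts were in one of the 11 groups, and 137 in daf-2(-) and 116 in WT had a sequence name only.

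Kinases, G proteins and signalling genes had 18 hosts among 66 genes with a peak in daf-2(-) and 16 among 51 in WT, with a median model of 6733 bp in daf-2(-) and 6633 bp in WT. The 19 deep daf-2(-) peaks ranged from 3.82 to 19.2 in fold enrichment and 15 of them were shared; the 16 WT peaks ranged from 4.86 to 18.2 and 15 were shared. Beside gpa-12, the strongest were in pde-4, a cAMP phosphodiesterase gene (14.3 in daf-2(-) against 14.0 in WT), cmk-1, a calmodulin-dependent kinase gene (11.7 in daf-2(-) against 11.4 in WT), egl-4 (7.96 in daf-2(-) against 15.2 in WT at the shared peak) and pdk-1. pdk-1 encodes a kinase of the insulin relay itself, and its deep peak, 1878 bp into a 6633 bp model, had 9.30 in daf-2(-) against 18.2 in WT. daf-2, the receptor gene, had a shared deep peak at chrIII:3026561-3027373, 1735 bp into a 21853 bp model. Its fold enrichment was 5.59 in daf-2(-) against 6.46 in WT. It held 79 tags (62.5 to 98.5) in daf-2(-) against 137 (115 to 162) in WT. The lists as a whole differed in the same direction, with a median of 106 tags over all daf-2(-) peaks and 184 over all WT peaks.

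The transcription factor group had 22 hosts among 144 genes in daf-2(-) and 22 among 125 in WT, with a median model of 3334 bp in both. Of its deep peaks, 21 of 25 in daf-2(-) and 21 of 24 in WT were shared, with medians of 7.41 in daf-2(-) and 10.6 in WT. The group was drawn by gene symbol and leaves out some factor genes, among them tra-1, whose strongest deep peak had 27.6 in daf-2(-). Within the group, the 3 strongest hosts in daf-2(-) were hlh-30, nhr-34 and zip-3, a bZIP factor gene (14.1 in daf-2(-) against 15.6 in WT). In WT they were nhr-3, nhr-34 and hlh-30. The gene of DAF-16 itself was among these hosts in daf-2(-) only: a peak at chrI:10766322-10767750, 1828 bp into a 10832 bp model, had a fold enrichment of 4.58 and 154 tags (131 to 180), with no overlapping WT peak. Within the group only nhr-61, with 3.69, had a weaker deep peak in daf-2(-). The 4 other daf-2(-) peaks of daf-16, with fold enrichments of 3.02 to 4.49, lay upstream or under 1 kb from a TSS. In WT daf-16 had 1 peak, 2141 bp upstream, of 6.11. mab-5, a Hox gene, had a shared deep peak of 4.94 in daf-2(-) against 5.66 in WT.

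Genes of axon guidance, adhesion and basement membrane had 6 hosts among 37 genes in daf-2(-) and 5 among 26 in WT. The strongest were zig-1, an immunoglobulin-domain protein gene (15.1 in daf-2(-) against 12.3 in WT), vab-10, a spectraplakin gene (7.23 in daf-2(-) against 15.5 in WT), unc-73 and, in daf-2(-), vab-1, the Eph receptor gene (6.31, with no WT partner). In the muscle group 4 of 29 genes were hosts in daf-2(-) and 3 of 24 in WT, led by unc-89, with 11.0 in daf-2(-) against 11.9 in WT at 2191 bp into its model, then zyx-1 (zyxin; 7.27, in daf-2(-) only) and dys-1 (dystrophin; 4.94 in daf-2(-) against 7.49 in WT) or, in WT, unc-94 (tropomodulin; 4.42 in daf-2(-) against 8.57 in WT).

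Fat and sugar metabolism genes were hosts in 9.68% of cases in daf-2(-) and 8.93% in WT, and detoxification and stress genes in 6.98% and 9.21%. All 4 shares lay between those given above for all genes with a peak and for models over 1000 bp. Fat and sugar metabolism had 6 hosts among 62 genes in daf-2(-) and 5 among 56 in WT. dhs-28, a peroxisomal fatty acid oxidation enzyme gene, led with 11.8 in daf-2(-) against 16.8 in WT. It was followed by tps-1, for trehalose synthesis (11.7 in daf-2(-) against 12.7 in WT). acs-22, a fatty acid transport protein gene, had a peak of 7.68 that was deep in daf-2(-) alone. Its overlapping WT partner had 17.2 and was assigned to acs-22 as an upstream peak, with the summits 94 bp apart. aldo-2, an aldolase gene, had a peak of 15.6 that was deep in WT alone. Its overlapping daf-2(-) partner had 10.15 and its centre lay 74 bp from the TSS, while the summits were 41 bp apart. Detoxification and stress genes had 6 of 86 in daf-2(-) and 7 of 76 in WT, led by the cytochrome P450 genes cyp-43A1 (8.53 in daf-2(-) against 15.7 in WT) and cyp-36A1 (8.50 in daf-2(-) against 13.3 in WT) and the DnaJ co-chaperone gene dnj-24 (8.64 in daf-2(-) against 9.97 in WT). Innate immunity and dod genes had 1 of 22 in daf-2(-), tir-1, and 3 of 22 in WT, tir-1, the C-type lectin gene clec-5 (8.25) and lys-2, a lysozyme gene (5.91).

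The remaining groups held 10 or fewer deep peaks between them in each list. Ion channels and transmitter receptors had 4 hosts of 36 in daf-2(-) and 2 of 24 in WT, with the muscarinic receptor gene gar-3 first in both, 7.94 in daf-2(-) against 9.79 in WT, then the innexin gene inx-18 (6.72) and the potassium channel gene twk-42 (3.83) in daf-2(-) and the innexin gene inx-13 (6.04) in WT. None of these innexin and potassium channel peaks had a partner. Neuropeptides and their receptors had 1 of 20 in daf-2(-), dmsr-6 (6.72), and 1 of 16 in WT, nlp-40 (9.08), neither shared. Cuticle and moulting genes had 3 of 31 in daf-2(-), ptr-14 (6.15), mlt-9 (4.08) and ptr-24 (3.98), and 3 of 36 in WT, mlt-9 (7.55), ptr-14 (5.75) and col-76 (5.12). Ubiquitin, autophagy and proteolysis genes had 2 of 58 in daf-2(-), math-34 (4.96) and cul-3 (4.46), and 1 of 39 in WT, the cathepsin L gene cpl-1 (9.21). The cpl-1 peak had an overlapping daf-2(-) partner of 5.10, inside the gene but under 1 kb from the TSS, with the summits 11 bp apart.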

How the data were processed

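Chromatin of mixed-stage worms was immunoprecipitated with an antibody against endogenous DAF-16. Per the study's methods and the submitters' processing notes, the authors called bases with CASAVA 1.8.2, trimmed reads with Cutadapt, aligned them uniquely with Bowtie 0.12.7 to WS230 allowing 1 mismatch, called peaks per ChIP library against its input with MACS 1.4.2 at a 5% FDR, and assigned peaks to the closest TSS with PeakAnnotator. The study states that WT peaks overlapping daf-16(-) peaks, and likewise daf-2(-) peaks at places called in daf-16(-);daf-2(-), were removed. The authors deposited for each peak a count of tags, the summit height (a pileup signal), the fold enrichment (a ratio over local background) and the FDR in percent. The p-value scores deposited beside them were not used, nor was 1 value column of a density table that matches no sample. Library depth is not given in the lists.

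Both lists were read as deposited, and coordinates are those of WS230. The deposited distance to the TSS was measured from the centre of the peak, to within 1 bp in every row. Shares have Wilson, differences of shares Newcombe, medians exact order-statistic and tag counts exact Poisson intervals (95%); ratios of fold enrichment have intervals from the Poisson error of both summit heights. No test was run, since each strain has 1 ChIP library. Gene symbols changed to dates or numbers in the lists (1 deep peak in daf-2(-), 2 in WT) were restored by sequence name from a RefSeq gene table (WBcel235), which also gave biotypes for 97.8% of deep daf-2(-) and 98.1% of deep WT peaks. Genes were grouped by symbol into 11 groups. The members, groups and rules were chosen with earlier results of these data known. Named genes were the hosts of the 10 strongest and the 5 most distant deep peaks of each list, those with the most deep peaks (many ties at 2, of which the text names some), the 5 strongest without a partner, the 5 highest and 5 lowest ratios, the 3 strongest hosts of each group, and the peaks next to the limit; daf-16, daf-2, pdk-1, skn-1, gpa-12 and mab-5 were added or enlarged on after their values were seen. Scripts were tested on simulated data, and used Python 3.11.15 with pandas 2.3.3, numpy 2.4.6, scipy 1.17.1 and, for plots, matplotlib 3.10.9. Alternatives were other distances, the summit in place of the centre, stricter peaks, other strength measures and other overlaps. No genome sequence of the build was used here.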

Additional observations from a re-analysis of the deposited data

How the results depend on the processing

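Of 70 alternatives, 47 stayed within the interval of the main value and 23 moved beyond it. With a distance of 500 bp or more the share of deep peaks was 7.99% in daf-2(-) and 8.38% in WT, and with 2000 bp or more it was 2.11% in daf-2(-) and 2.19% in WT. The 2000 bp limit also gave median positions of 37.2% in daf-2(-) and 38.5% in WT and host lengths of 7875 bp in daf-2(-) and 7774 bp in WT, as only longer genes can then qualify. With a fold enrichment of 10 or more the share of deep peaks was 3.44% in daf-2(-) and 4.58% in WT, the shared part was 88.7% in daf-2(-) and 96.3% in WT, and 33.8% of daf-2(-) and 28.9% of WT hosts had a peak near the TSS. In daf-2(-) the X chromosome then held 23.9% of deep and 25.9% of other peaks, a difference of -1.91 points where all peaks gave 3.78, and the median position was 36.1%. With summits within 100 bp as the sign of sharing, 51.2% of deep daf-2(-) and 64.8% of deep WT peaks were shared. In models of 5000 bp or more the median position was 22.1% in daf-2(-) and 22.7% in WT. By tags per kb the deep over other ratio was 0.943 in WT, and by summit height the log2 ratio of shared deep peaks was -0.56. Sharing and strength with the position taken from the summit, neither of which moved, and the difference on X among stronger peaks were alternatives chosen after seeing the data. No paired analysis was possible because there was 1 ChIP library for each strain, which also left no replicate to drop. Peaks below the calling limit are not in the lists, so a place without a partner may still hold a weaker signal there.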
